A study of Mus musculus with 23 samples.

Results

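Ligands and receptors of the interleukin and tumour necrosis factor (TNF) superfamilies were measured on microarrays in microglia of mice with amyloid or tau pathology. The genes were taken by their annotated symbol, as those that start with Il and a digit, with Tnfsf or with Tnfrsf. The colony-stimulating factor receptor genes Csf1r, Csf2ra, Csf2rb and Csf3r and the interferon receptor genes Ifnar1, Ifnar2, Ifngr1 and Ifngr2 were added. Il1a, Il1b and Il1rn were left out. This gave 110 probe sets for 110 genes, of 22203 probe sets in all, 19572 of them with a symbol. No measured value entered the rule. Il2rg and Tnfsf12 had no probe set under those symbols and were not analysed here.

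The cells were sorted from cortex and hippocampus as CD45+ CD11b+ microglia, the resident macrophages of the brain, and gave 23 samples in 6 groups. The gated APP group held 4 samples from APPswlnd mice of 12 months, and the gated TAU group held 4 samples from P301S (PS19) mice, whose age field says 9 months and whose titles say 12 months. The labels call the cells of both groups active, and the design text says that active cells were sorted as positive for Clec7a, a C-type lectin receptor whose gene was not analysed here. The aged WT group held 4 samples from C57BL6 mice of 12 months. The young groups were 3 APPswlnd samples, 4 P301S (PS19) samples and 4 C57BL6 samples, all of 3 months, and the labels place the young transgenic mice before pathology. The APPswlnd transgene encodes mutant human amyloid precursor protein, and the PS19 transgene encodes mutant human tau; the labels give neither the promoters nor the sex of the mice. The labels name no Clec7a gate in the other 4 groups. Strain, pathology and gate therefore differ together between gated and aged WT samples, and age differs as well for gated TAU. The replicates are called biological but are not said to be separate animals or pools, and the tests see only how these samples vary.

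Interleukins and TNF superfamily ligands are secreted or membrane-bound proteins that act on receptor chains of a few families. Class I and class II cytokine receptors signal through Janus kinases and STAT factors, interleukin 1 and interleukin 17 receptors signal through adaptor proteins to NF-kB, and TNF receptors signal through TRAF or death domain adaptors. Microglia depend on the receptor tyrosine kinase encoded by Csf1r, which binds the ligands encoded by Csf1 and Il34, and they carry receptors for interferons, interleukin 10 and TNF.

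Promoter sequence is shown for receptor genes from a chosen list of genes called in all 4 comparisons of gated cells with aged WT or young mice. Each had an entry in the RefSeq promoter table (build GRCm38.p6) with at least 100 bases outside the annotated gene. Csf1r, also called in all 4 comparisons, was not on that list. The 3 sequences are the bases directly upstream of the gene, 5′ to 3′ on the gene's own strand. Capitals in Csf2ra and Il6ra mark overlapping matches to the NF-kB motif, which is GGG, then any 5 bases, then CC. Capitals in Il7r mark a match to the STAT motif TTCNNNGAA. Csf2ra, the alpha chain of the GM-CSF receptor, rose in gated cells, and Il7r and Il6ra, the alpha chains of the interleukin 7 and interleukin 6 receptors, fell.
Csf2ra, 207 bases at chr19:61228462-61228668, minus strand: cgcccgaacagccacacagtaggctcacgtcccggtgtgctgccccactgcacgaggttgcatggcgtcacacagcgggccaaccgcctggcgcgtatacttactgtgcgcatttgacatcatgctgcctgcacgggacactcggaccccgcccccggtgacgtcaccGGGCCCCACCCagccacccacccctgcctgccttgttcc
Il7r, 185 bases at chr15:9529942-9530126, minus strand: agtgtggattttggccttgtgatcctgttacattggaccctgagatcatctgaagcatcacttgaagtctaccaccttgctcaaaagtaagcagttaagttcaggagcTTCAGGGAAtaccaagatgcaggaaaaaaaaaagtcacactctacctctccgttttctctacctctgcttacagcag
Il6ra, 250 bases at chr3:89913197-89913446, minus strand: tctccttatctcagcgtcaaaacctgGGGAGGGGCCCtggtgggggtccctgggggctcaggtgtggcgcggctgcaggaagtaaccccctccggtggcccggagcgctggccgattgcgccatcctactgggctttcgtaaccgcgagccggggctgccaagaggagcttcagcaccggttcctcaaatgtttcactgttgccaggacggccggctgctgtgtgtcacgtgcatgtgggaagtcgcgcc
The table held 85 of the 110 genes, and 21 of the 29 genes called in at least 1 comparison of gated cells. Over the 250 bases before the first listed start, on both strands, the NF-kB motif stood in 10 of those 21, in 40 of the 85 and in 45.4% of all 27025 promoters. The STAT motif stood in 3 of the 21 (Il7r, Ifnar2 and Il12rb2), in 10 of the 85 and in 7.18% of all promoters. The AP-1 motif TGANTCA, the PU.1 motif GAGGAAGT and the interferon-stimulated motif (GAAA, any 2 bases, GAAA) each stood in 1 of the 21, against 6.87%, 2.44% and 3.04% of all promoters. A match is a description of letters in this window, not a binding site.

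All values are log2 signals per probe set. A level was called above background on an array where it exceeded the 95th percentile of 1467 chemosensory receptor probe sets there. These are receptors of smell, pheromone sensing and taste, and the background lay between 7.25 and 8.72 over the arrays. Aged WT replicates 2 and 4 and young TAU replicate 4 stood apart, with backgrounds of 8.70, 8.72 and 8.62 and the narrowest spread of values. Microglial markers were above background for 10 of 10 measured genes in every group, with sample means from 14.11 to 14.59 in gated APP, from 14.28 to 14.56 in gated TAU and from 14.91 to 15.42 in aged WT. Of these, P2ry12, Tmem119 and Sall1 fell in both gated groups and Trem2 rose, and the part of these and the following marker shifts in the results below was not tested. Of 9 measured T and NK cell markers, Cd4 and Klrb1c exceeded background on some arrays and the other 7, Cd3d, Cd3e and Cd3g among them, on none; all 4 mast cell markers were at background. Klrb1c averaged 9.65 ± 0.43 in gated TAU, 8.05 ± 0.31 in gated APP and 8.03 ± 1.10 in aged WT (SD, n = 4 each), and rose in gated TAU (limma adjusted p = 0.0443). Border macrophage markers were above background for 4 of 7 genes in every group. Their sample means lay from 7.66 to 7.89 in gated APP, from 8.33 to 9.23 in gated TAU, from 7.92 to 8.24 in aged WT, from 8.74 to 9.16 in young APP and from 8.37 to 9.17 in young TAU, so that gated APP and gated TAU each stood apart from aged WT. Neutrophil markers were above background for 0 of 7 genes in gated APP and in gated TAU, against 3 of 7 in aged WT. The mean of the 3 Y-linked genes measured lay between 4.16 and 7.13 in gated APP, 4.50 and 6.78 in gated TAU, 6.06 and 7.31 in aged WT, 4.14 and 4.62 in young APP, 4.0 and 6.88 in young TAU and 6.98 and 7.46 in young WT.

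Of the 110 genes, 20 were above background on all 23 arrays, 31 on some and 59 on none. Receptors were read more widely than ligands. All 6 detected class II receptors, Il10ra, Il10rb, Ifnar1, Ifnar2, Ifngr1 and Ifngr2, were above background on every array, as were Csf1r, Csf3r, Il6ra, Il6st, Il4ra, Il13ra1, Il17ra and Csf2rb. Of the 28 interleukin ligand genes outside the interleukin 1 family, 21 were at background on every array, among them Il10, Il4 and the T cell cytokine genes Il2, Il17a and Il21. The ligand genes read on every array included Il16, a chemoattractant for CD4+ cells, and Il18, an inflammasome-processed cytokine of the interleukin 1 family.

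In gated APP against aged WT, 15 of the 110 genes passed limma's test (adjusted p under 0.05 over all 22203 probe sets), 8 higher and 7 lower. That is 13.6% of the genes, against 9.08% of all probe sets (5.60% higher and 3.48% lower). Among genes above background on at least 1 array of these groups the count was 13 of 51, against 17.1% of all such probe sets. In gated TAU against aged WT, 18 of the 110 were called, 10 higher and 8 lower, which is 16.4% against 8.76% of all probe sets (5.09% higher and 3.67% lower). Above background it was 16 of 51, against 16.3% of all such probe sets. The shares of called genes were not tested against those of all probe sets, and the counts are not read as results about the family. The samples did not overlap for 21 genes in gated APP and 17 in gated TAU, or 19.1% and 15.5%, against 11.6% and 11.9% of all probe sets. The median log2 fold change of the 110 genes was -0.10 in gated APP and -0.05 in gated TAU, against -0.06 and -0.05 over all probe sets. Both comparisons use the same 4 aged WT samples, and 10 genes were called in both, which is 66.7% of the gated APP calls and 55.6% of the gated TAU calls. Without aged WT replicates 2 and 4 the counts were 10 in gated APP and 8 in gated TAU, and all of these were also called with those replicates in. In these bulk samples fewer cells of a type and less RNA per cell cannot be told apart.

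**Figure D1:**
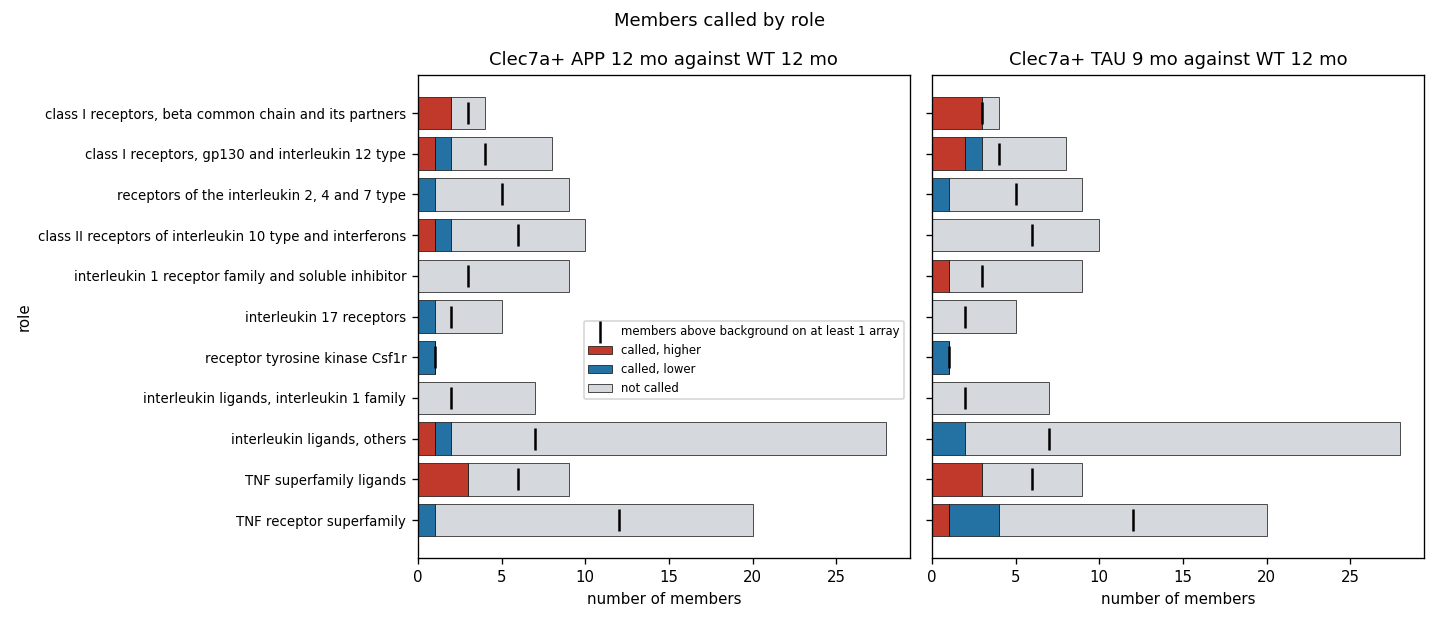
Number of genes (horizontal axis) in each of 11 receptor and ligand roles (rows) that were called higher, called lower or not called in gated APP (left) and gated TAU (right) against aged WT. The black mark gives how many genes of the role were above background on at least 1 of the 23 arrays; TNF superfamily ligands had 3 genes higher and 0 lower in each panel.

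The beta common chain receptors, which bind GM-CSF, interleukin 3 and interleukin 5, had 2 of 4 genes higher in gated APP and 3 of 4 higher in gated TAU, with none lower. Of all probe sets, 5.60% and 5.09% were called higher in these comparisons and 3.48% and 3.67% lower. Here and below, counts by role were not tested against these shares and are not read as results about a role. Csf2ra (probe set TC1900001762.mm.2) read 8.85, 8.55, 8.28 and 7.84 in gated APP, 9.22, 8.04, 8.38 and 7.90 in gated TAU, and 7.17, 6.78, 6.96 and 7.02 in aged WT. Every gated sample lay above every aged WT sample, and aged WT was at background on all arrays. The log2 fold change was 1.4 ± 0.26 (SE, n = 4 each; limma adjusted p = 0.000683) in gated APP and 1.4 ± 0.26 (adjusted p = 0.000908) in gated TAU. That is at least 1.16-fold in each, with 3 of 4 arrays of each gated group above background. Here and below, a fold written as "at least" sets the brighter group's mean against the background on arrays where the dimmer group did not exceed it.

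Il3ra, the alpha chain of the interleukin 3 receptor (TC1400000112.mm.2), read 10.48, 10.45, 9.07 and 9.85 in gated APP, 9.85, 9.52, 10.19 and 9.35 in gated TAU, and 8.52, 8.89, 8.81 and 8.55 in aged WT. The gated samples again lay above all aged WT samples. There was a 2.41-fold rise in gated APP (log2 1.27 ± 0.25, limma adjusted p = 0.00161) and a 2.05-fold rise in gated TAU (log2 1.04 ± 0.25, adjusted p = 0.0112; 0.0570 without aged WT replicates 2 and 4, and 0.0510 without gated TAU replicate 3). Csf2rb, the signalling chain that these receptors share, read 11.77, 11.51, 11.11 and 11.03 in gated APP, 10.72, 11.54, 12.04 and 11.39 in gated TAU, and 10.76, 10.59, 10.70 and 10.56 in aged WT. It had a log2 fold change of 0.70 ± 0.24 in gated APP that was not called (limma adjusted p = 0.0763). In gated APP it was called without dim probe sets and without gated TAU replicate 1 (limma adjusted p = 0.0439 and 0.0418). It rose 1.71-fold in gated TAU at the edge of the threshold (log2 0.77 ± 0.24, limma adjusted p = 0.0493), where 1 of the 4 gated samples lay within the aged WT range. That call was lost under 22 of 32 alternative settings, 17 of which left out a single sample of any group (limma adjusted p up to 0.188, without gated TAU replicate 3). Mice also carry Csf2rb2, a close copy, and it is not known here whether the probe set reads one gene or both. Il5ra, the interleukin 5 receptor alpha chain, was at background on all arrays.

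Among receptors of the gp130 and interleukin 12 type, Il6ra fell and Il12rb2 rose in both gated groups. Il6ra (TC0300002357.mm.2) read 12.75, 12.89, 13.18 and 11.98 in gated APP, 13.22, 12.92, 13.63 and 13.12 in gated TAU, and 14.86, 14.37, 15.02 and 13.42 in aged WT. The gated APP samples lay below all aged WT samples, while the highest gated TAU sample exceeded the lowest aged WT sample. The fall was 3.29-fold in gated APP (log2 -1.72 ± 0.29, limma adjusted p = 0.000273) and 2.29-fold in gated TAU (log2 -1.19 ± 0.29, adjusted p = 0.0105; 0.0641 in a fit of those 2 groups alone). Il6st, which encodes the shared signalling chain gp130, read 14.24, 14.34, 14.34 and 14.40 in gated APP, 13.10, 12.65, 13.77 and 13.39 in gated TAU, and 13.66, 12.45, 14.57 and 13.17 in aged WT. The aged WT samples spanned the range of both gated groups, and neither comparison was called (log2 0.87 ± 0.33, limma adjusted p = 0.110 in gated APP; -0.24 ± 0.33, adjusted p = 0.727 in gated TAU). The gated APP comparison was called without aged WT replicate 3 (limma adjusted p = 0.00627), with array weights (0.0447) and with the replicate block (0.0491).

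Il12rb2, the signalling chain of the interleukin 12 receptor, rose 1.86-fold in gated APP (log2 0.90 ± 0.22, limma adjusted p = 0.00990) and 1.69-fold in gated TAU (log2 0.76 ± 0.22, adjusted p = 0.0336), with gated APP samples from 9.03 to 9.66, gated TAU samples from 8.53 to 9.66 and aged WT samples from 8.26 to 8.83. The gated TAU call of Il12rb2 was lost without gated TAU replicate 1 or 3 or without aged WT replicate 1, 2 or 3 (limma adjusted p from 0.0589 to 0.127). Its partner Il12rb1 and the interleukin 23 receptor gene Il23r were at background in all 3 groups. Il27ra, the interleukin 27 receptor chain, was called higher in gated TAU (log2 0.65 ± 0.19, limma adjusted p = 0.0405) with both groups at background on every array, so no fold is given; this call was lost without gated TAU replicate 1 or 2 or aged WT replicate 1 or 3 (adjusted p from 0.0859 to 0.138). Csf3r, the G-CSF receptor that neutrophils also carry, had log2 fold changes of 0.17 ± 0.28 in gated APP and -0.02 ± 0.28 in gated TAU and was not called (limma adjusted p = 0.772 and 0.974). Sample means of the neutrophil markers lay from 5.31 to 5.61 in gated APP, from 5.39 to 5.65 in gated TAU and from 5.90 to 7.49 in aged WT.

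Il7r (TC1500001197.mm.2) fell further than any other of the 110 genes in either comparison with aged WT, and was the only one called there of the 9 receptors of the interleukin 2, 4 and 7 type. It read 7.25, 6.70, 7.93 and 8.15 in gated APP, 7.28, 7.81, 7.88 and 6.74 in gated TAU, and 10.47, 9.99, 10.14 and 9.73 in aged WT. All 8 gated samples lay below all aged WT samples, and 1 of 4 arrays in each gated group remained above background. Il7r fell 5.96-fold in gated APP (log2 -2.57 ± 0.40, limma adjusted p = 9.93e-05) and 6.30-fold in gated TAU (log2 -2.65 ± 0.40, adjusted p = 9.91e-05). Since 3 of 4 arrays of each gated group were at background, these folds are estimates of a partly unmeasured level. With every value below background raised to it, they were 4.32-fold and 4.36-fold, still the furthest fall. Il7r is best known in lymphocytes. Of the T and NK cell markers, Cd4 was above background on 2 of 4 arrays in gated APP, gated TAU and aged WT alike, Klrb1c on 3, 4 and 1 of 4, and Cd3d, Cd3e and Cd3g on none, and their part in the fall was not tested. The interleukin 4 and 13 receptor genes Il4ra and Il13ra1 were read on every array and were not called, with log2 fold changes of -0.07 ± 0.27 and 0.32 ± 0.23 in gated APP and -0.44 ± 0.27 and 0.20 ± 0.23 in gated TAU.

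Csf1r (TC1800000625.mm.2) fell in both gated groups and had little spread within them. It read 17.62, 17.62, 17.45 and 17.50 in gated APP, 17.62, 17.52, 17.59 and 17.62 in gated TAU, and 18.38, 18.20, 18.38 and 18.10 in aged WT, with no overlap. The fall was 1.64-fold in gated APP (log2 -0.72 ± 0.14, limma adjusted p = 0.00114) and 1.60-fold in gated TAU (log2 -0.68 ± 0.14, adjusted p = 0.00257). Its ligand gene Csf1 moved the other way, with mean signals of 17.02 ± 0.39 in gated APP, 17.09 ± 0.31 in gated TAU and 13.38 ± 0.62 in aged WT (SD, n = 4 each). This was a 12.5-fold rise in gated APP (limma adjusted p = 5.94e-09) and a 13.1-fold rise in gated TAU (adjusted p = 6.38e-09). The other ligand gene, Il34, read 7.67, 7.89, 8.44 and 8.01 in gated APP, 7.68, 7.86, 7.61 and 8.20 in gated TAU, and 7.57, 7.70, 7.70 and 7.49 in aged WT, close to background throughout. Its log2 fold changes of 0.39 ± 0.16 and 0.22 ± 0.16 were not called (limma adjusted p = 0.155 and 0.455).

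**Figure D2:**
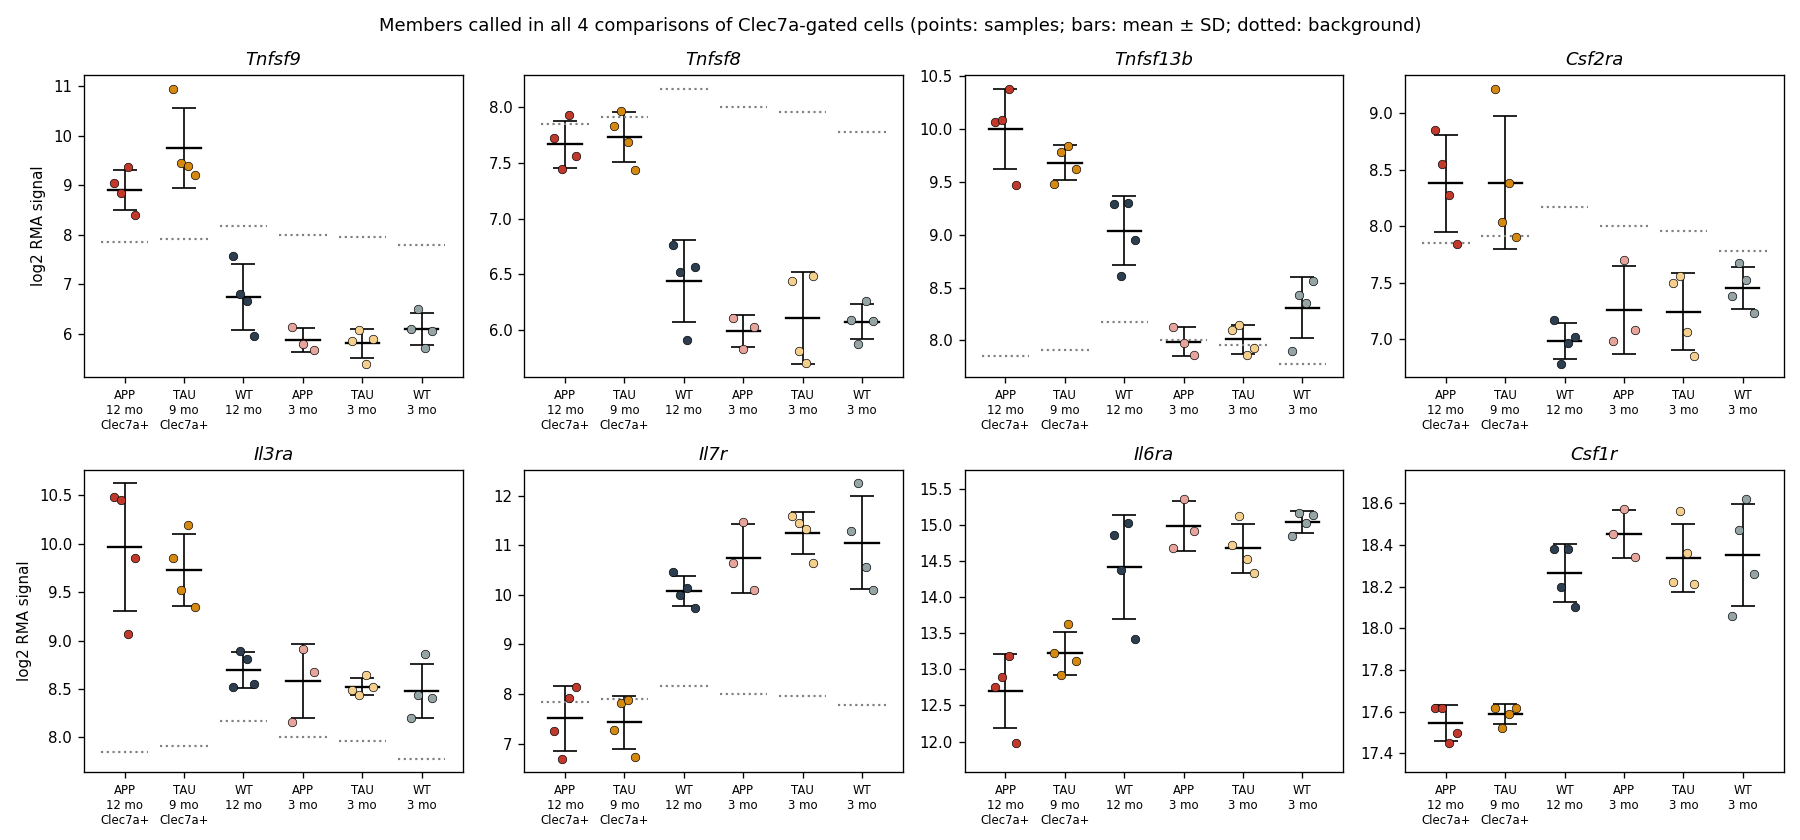
Log2 signal (vertical axes) of the 8 genes called in all 4 comparisons of gated cells, by group (horizontal axes); points are samples, bars are the mean ± SD, and dotted lines are the mean background of the group's arrays. The 5 ligand and receptor genes that rose were Tnfsf9, Tnfsf8, Tnfsf13b, Csf2ra and Il3ra, and the 3 receptor genes that fell were Il7r, Il6ra and Csf1r.

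The class II receptors had 1 gene higher and 1 lower of 10 in gated APP and none called in gated TAU. Ifnar2, the chain of the type I interferon receptor that carries STAT factors, read 16.59, 16.85, 16.77 and 16.41 in gated APP, 16.07, 16.17, 16.32 and 15.91 in gated TAU, and 15.79, 15.39, 15.64 and 15.57 in aged WT. The 3 groups did not overlap, with gated APP highest and aged WT lowest. Ifnar2 rose 2.08-fold in gated APP (log2 1.06 ± 0.22, limma adjusted p = 0.00274; 0.0537 without aged WT replicates 2 and 4) and had a log2 fold change of 0.52 ± 0.22 in gated TAU that was not called (adjusted p = 0.169). Its partner chain Ifnar1 ranged from 9.32 to 9.80 in gated APP, from 9.29 to 9.72 in gated TAU and from 8.95 to 9.34 in aged WT, and was not called (log2 0.53 ± 0.17, limma adjusted p = 0.0600 in gated APP; 0.39 ± 0.17, adjusted p = 0.189 in gated TAU). It was called in gated APP without gated APP replicate 4 or aged WT replicate 3 (limma adjusted p = 0.0330 in each), and under quantile normalization, without dim probe sets and with the replicate block (0.0340 to 0.0408).

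Il10ra, the ligand-binding chain of the interleukin 10 receptor, read 13.35, 14.11, 13.31 and 13.38 in gated APP, 13.91, 13.83, 13.52 and 13.92 in gated TAU, and 14.40, 14.28, 14.35 and 14.30 in aged WT. Both gated groups lay below aged WT with no overlap. The fall was called in gated APP (1.74-fold, log2 -0.80 ± 0.17, limma adjusted p = 0.00337) and missed the threshold in gated TAU (log2 -0.54 ± 0.17, adjusted p = 0.0543). In gated TAU it was called under quantile normalization, without dim probe sets, and without gated APP replicate 2 or young WT replicate 3 (limma adjusted p from 0.021 to 0.0484). In gated APP the call of Il10ra was lost in a fit of those 2 groups alone (limma adjusted p = 0.0539). Il10rb, its shared partner chain, and the interferon gamma receptor genes Ifngr1 and Ifngr2 were not called, with log2 fold changes of 0.17 ± 0.22, -0.64 ± 0.29 and 0.12 ± 0.17 in gated APP and 0.05 ± 0.22, -0.60 ± 0.29 and -0.09 ± 0.17 in gated TAU. Il10 itself was at background on every array.

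Il17ra, the shared chain of interleukin 17 receptors, read 10.13, 10.97, 10.64 and 9.58 in gated APP, 10.98, 11.09, 11.72 and 11.12 in gated TAU, and 12.37, 12.11, 11.50 and 11.07 in aged WT. All gated APP samples lay below all aged WT samples, whereas gated TAU overlapped them. It fell 2.70-fold in gated APP (log2 -1.43 ± 0.32, limma adjusted p = 0.00406), and in gated TAU the log2 fold change was -0.54 ± 0.32 (adjusted p = 0.343). In the interleukin 1 receptor family, 0 of 9 genes were called in gated APP and 1 of 9 in gated TAU. That gene, Il18rap, the accessory chain of the interleukin 18 receptor, read 8.0, 7.78, 7.49 and 8.56 in gated TAU and 7.51, 6.76, 7.29 and 7.36 in aged WT, around background. It exceeded background on 2 of 4 gated TAU arrays and 1 of 4 aged WT arrays (log2 0.73 ± 0.20, limma adjusted p = 0.0263; 0.208 without aged WT replicates 2 and 4). The call was also lost without gated TAU replicate 1 or 4 or aged WT replicate 2 alone (limma adjusted p from 0.0626 to 0.113). With values below background raised to it, the log2 difference was -0.13, so no fold is given. Il1r1, the signalling receptor for interleukin 1, was at background on every array, and Il1rap, its accessory chain, was at background on all arrays of both gated groups.

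Among TNF superfamily ligands, 3 of 9 genes rose in each gated group and none fell, where 5.60% and 5.09% of all probe sets were called higher. Tnfsf9 (TC1700001027.mm.2), which encodes the 4-1BB ligand, read 9.04, 8.83, 9.36 and 8.39 in gated APP, 10.95, 9.45, 9.39 and 9.21 in gated TAU, and 7.56, 6.79, 6.65 and 5.95 in aged WT. All 8 gated samples were above background and all aged WT samples below it. The log2 fold change was 2.17 ± 0.33 in gated APP (limma adjusted p = 8.74e-05), at least 1.67-fold, and 3.01 ± 0.33 in gated TAU (adjusted p = 1.47e-06), at least 2.99-fold. Gated TAU replicate 1 was the highest sample, at 10.95.

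Tnfsf13b (TC0800000074.mm.2), which encodes the B cell activating factor BAFF, read 10.06, 10.08, 10.38 and 9.47 in gated APP, 9.48, 9.78, 9.84 and 9.62 in gated TAU, and 9.29, 8.61, 9.30 and 8.95 in aged WT. The gated samples lay above all aged WT samples by a narrow margin. The rise was 1.95-fold in gated APP (log2 0.96 ± 0.19, limma adjusted p = 0.00172; 0.0709 without aged WT replicates 2 and 4) and 1.56-fold in gated TAU (log2 0.64 ± 0.19, adjusted p = 0.0399; 0.389 without those replicates). Leaving out 1 of gated TAU replicates 2, 3 and 4 or of aged WT replicates 2 and 4 also ended the gated TAU call (limma adjusted p from 0.0567 to 0.156). Tnfsf8 (TC0400002809.mm.2), which encodes the CD30 ligand, read 7.73, 7.45, 7.93 and 7.56 in gated APP, 7.83, 7.97, 7.69 and 7.44 in gated TAU, and 6.76, 6.52, 5.91 and 6.57 in aged WT. The groups did not overlap (log2 1.23 ± 0.20, limma adjusted p = 0.000193 in gated APP; 1.29 ± 0.20, adjusted p = 0.000152 in gated TAU). Only 1 of 4 arrays in each gated group and none in aged WT exceeded background, so no fold is given. Tnfsf10, which encodes the death ligand TRAIL, was not called (log2 0.35 ± 0.32 in gated APP and -0.29 ± 0.32 in gated TAU).

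Receptors of these ligands were at background in both gated groups. Tnfrsf9 and Tnfrsf8, which bind the Tnfsf9 and Tnfsf8 proteins, and Tnfrsf13c, which binds BAFF, exceeded it on no array, and the other BAFF receptor genes, Tnfrsf13b and Tnfrsf17, on 1 of 4 aged WT arrays each. Of the 20 TNF receptor superfamily genes, 1 was called lower in gated APP, and 3 were called lower and 1 higher in gated TAU. Tnfrsf25, the receptor for the TL1A ligand, fell 1.66-fold in gated APP (log2 -0.73 ± 0.19, limma adjusted p = 0.0133) and 1.56-fold in gated TAU (log2 -0.64 ± 0.19, adjusted p = 0.0354). Gated APP samples lay from 7.72 to 8.19, gated TAU samples from 7.71 to 8.56 and aged WT samples from 8.45 to 8.96. Without aged WT replicates 2 and 4 neither was called (limma adjusted p = 0.207 and 0.301). The gated APP call was also lost without gated APP replicate 1 or aged WT replicate 4, and the gated TAU call without gated TAU replicate 1, 2 or 3 or aged WT replicate 2 or 4 (limma adjusted p from 0.0506 to 0.126). Tnfrsf12a, the receptor for TWEAK, read 10.90, 10.86, 11.16 and 10.74 in gated TAU against 11.84, 11.91, 11.47 and 11.46 in aged WT, with no overlap, and fell 1.69-fold (log2 -0.76 ± 0.21, limma adjusted p = 0.0256; 0.112 without those replicates). Tnfrsf19, which is expressed in neural progenitors, was called higher in gated TAU (log2 0.59 ± 0.16, limma adjusted p = 0.0240; 0.0628 without them), with 2 of 4 gated TAU and 1 of 4 aged WT arrays above background. With values below background raised to it, the groups were 1.01-fold apart. Tnfrsf17, a BAFF and APRIL receptor of plasma cells, was called lower in gated TAU (log2 -1.01 ± 0.27, limma adjusted p = 0.0185; 0.0533 without them), with 0 of 4 gated arrays and 1 of 4 aged WT arrays above background. Leaving out 1 sample ended the call of Tnfrsf12a (gated TAU replicate 1, 2 or 4, aged WT replicate 1 or 2), of Tnfrsf19 (gated TAU replicate 1 or 3, aged WT replicate 1, 3 or 4) and of Tnfrsf17 (gated TAU replicate 4, aged WT replicate 1), with limma adjusted p from 0.0513 to 0.0867.

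Both TNF receptor genes were read in every group and neither was called. Tnfrsf1a, the widely expressed TNF receptor, read 12.13, 12.67, 12.56 and 12.01 in gated APP, 12.51, 11.88, 12.27 and 11.98 in gated TAU, and 12.52, 11.85, 12.74 and 11.97 in aged WT. The 3 groups overlapped almost fully (log2 0.07 ± 0.23, limma adjusted p = 0.891 in gated APP; -0.11 ± 0.23, adjusted p = 0.826 in gated TAU). Tnfrsf1b, the TNF receptor of immune cells, had log2 fold changes of 0.17 ± 0.20 and 0.09 ± 0.20 (limma adjusted p = 0.675 and 0.836), and Tnfrsf11a, which encodes RANK, of 0.23 ± 0.23 in each (adjusted p = 0.595 and 0.605).

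Called interleukin ligand genes lay at or near background. Il6, the ligand of the Il6ra product, read 7.86, 7.73, 7.10 and 6.50 in gated TAU and 9.19, 8.84, 8.64 and 8.16 in aged WT, where 3 of 4 arrays exceeded background. It fell at least 1.74-fold in gated TAU (log2 -1.41 ± 0.40, limma adjusted p = 0.0294; 0.0626 without aged WT replicates 2 and 4). In gated APP it read 7.61, 8.10, 7.39 and 8.05, below all aged WT samples, and was not called (log2 -0.92 ± 0.40, limma adjusted p = 0.179). Il20 and Il23a in gated APP and Il4 in gated TAU were called with both groups at background, so no fold is given (log2 -0.67 ± 0.21, 0.72 ± 0.21 and -0.95 ± 0.29; limma adjusted p = 0.0410, 0.0322 and 0.0410). Without aged WT replicates 2 and 4 these 3 calls were lost (limma adjusted p = 0.341, 0.0874 and 0.307). Leaving out 1 sample ended the call of Il6 (gated TAU replicate 3 or 4, aged WT replicate 1 or 2), of Il20 (gated APP replicate 1, 3 or 4, aged WT replicate 1, 2 or 4), of Il23a (gated APP replicate 1 or 3, aged WT replicate 1 or 4) and of Il4 (any gated TAU replicate, aged WT replicate 1, 2 or 4, young APP replicate 3), with limma adjusted p from 0.0502 to 0.168. Il16 and Il18 were read on every array and were not called, with log2 fold changes of -0.37 ± 0.17 and -0.42 ± 0.19 in gated APP and -0.17 ± 0.17 and -0.47 ± 0.19 in gated TAU. Il33, an alarmin of glia and endothelium, was at background on every array.

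**Figure D3:**
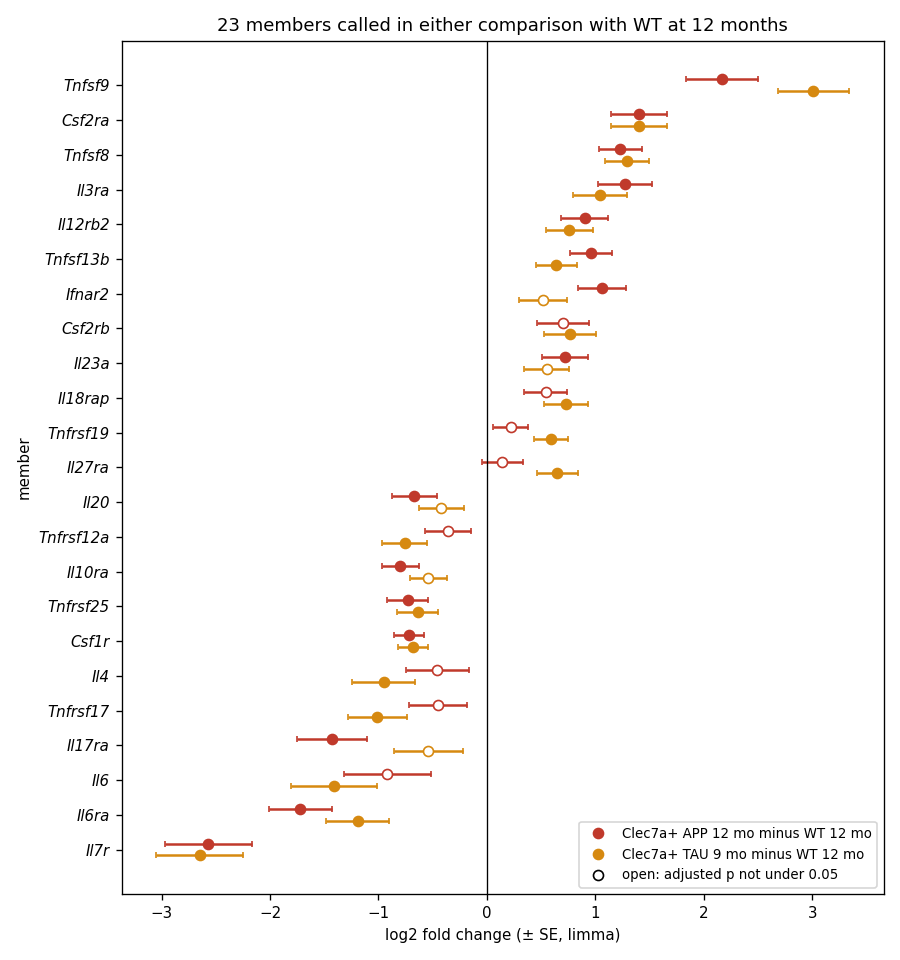
Log2 fold change with its SE (horizontal axis) of the 23 genes called in gated APP or gated TAU against aged WT (rows); filled points are called, open points are not. Each gene has the same sign in both comparisons, which share the aged WT samples, and the values span -2.65 for Il7r in gated TAU to 3.01 for Tnfsf9 in gated TAU.

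Gated APP and gated TAU were set against each other directly; they differ in transgene, strain and pathology together, and in age by the age field, which cannot be told apart. None of the 110 genes was called by limma, against 0.928% of all probe sets (0.626% higher and 0.302% lower) and 1.91% of those above background, with 11 genes at an unadjusted p under 0.05. The samples did not overlap for 8 of the 110, against 4.70% of all probe sets. The smallest p was that of Il6st, whose gated APP samples, 14.24 to 14.40, all lay above the gated TAU samples, 12.65 to 13.77 (log2 1.10 ± 0.33, limma adjusted p = 0.152). Without aged WT replicates 2 and 4, which enter this comparison only through the estimate of the spread, it was called (limma adjusted p = 0.0434), as it was without aged WT replicate 3 (adjusted p = 0.0483). Il17ra was at -0.90 ± 0.32 (limma adjusted p = 0.291), Tnfsf9 at -0.85 ± 0.33 (adjusted p = 0.369) and Ifnar2 at 0.54 ± 0.22 (adjusted p = 0.421) as log2 fold changes of gated APP over gated TAU. The calls made in only one gated group against aged WT are therefore not shown to differ between the groups. The border macrophage means given above did not overlap between these groups, and their part in these values was not tested.

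Within each strain, gated cells were set against cells of young mice, which holds the transgene and leaves age, pathology and gate different together. The Y-linked means lay from 4.16 to 7.13 in gated APP but from 4.14 to 4.62 in young APP. Any difference in sex cannot be told apart from the others there. In gated APP against young APP, 16 genes were called, 8 higher and 8 lower. That is 14.5% against 12.1% of all probe sets (6.19% higher and 5.95% lower). With the Y-linked mean in the fit the count was also 16, with 14 genes called both ways. In gated TAU against young TAU, 21 were called, 12 higher and 9 lower, which is 19.1% against 13.5% (6.67% higher and 6.81% lower). Among genes above background the counts were 14 of 48 and 18 of 49, against 23.5% and 25.7% of all such probe sets. The samples did not overlap for 20 and 21 genes, against 20% and 17.2% of all probe sets. These comparisons use the same gated samples as those with aged WT but other samples as the baseline. The same 8 genes, Csf2ra, Il3ra, Tnfsf13b, Tnfsf8, Tnfsf9, Csf1r, Il6ra and Il7r, were called in one direction in all 4 comparisons.

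Tnfsf13b read 8.13, 7.98 and 7.86 in young APP and 8.10, 8.15, 7.86 and 7.93 in young TAU, levels near the background of their arrays. Against these the gated levels given above were 4.02-fold higher in gated APP (log2 2.01 ± 0.21, limma adjusted p = 4.45e-07) and 3.18-fold higher in gated TAU (log2 1.67 ± 0.19, adjusted p = 2.24e-06), with 1 of 3 and 2 of 4 young arrays above background. With values below background raised to it, the rises were 3.5-fold in gated APP and 2.8-fold in gated TAU. Tnfsf9 read 6.13, 5.79 and 5.66 in young APP and 5.85, 6.08, 5.39 and 5.88 in young TAU, all at background. It was at least 1.87-fold higher in gated APP (log2 3.04 ± 0.36, limma adjusted p = 2.76e-06) and at least 3.45-fold higher in gated TAU (log2 3.95 ± 0.33, adjusted p = 1.69e-08).

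Il7r read 10.65, 11.48 and 10.09 in young APP and 11.59, 11.45, 11.33 and 10.64 in young TAU, well above every gated sample. It fell 9.40-fold in gated APP (log2 -3.23 ± 0.43, limma adjusted p = 1.38e-05) and 14.2-fold in gated TAU (log2 -3.82 ± 0.40, adjusted p = 5.39e-07), or 6.81-fold and 9.82-fold with values below background raised to it. Il6ra fell 4.87-fold in gated APP (log2 -2.28 ± 0.31, limma adjusted p = 2.02e-05) and 2.74-fold in gated TAU (log2 -1.45 ± 0.29, adjusted p = 0.00126). Il10ra was called lower in both here, 2.47-fold in gated APP (limma adjusted p = 3.26e-05) and 1.67-fold in gated TAU (adjusted p = 0.00457). Il18 fell 1.72-fold in each (limma adjusted p = 0.0124 and 0.00641). Il3ra and Csf1r kept their directions, at 2.61-fold and 1.87-fold in gated APP and 2.31-fold and 1.68-fold in gated TAU. Csf2ra was above background on 1 of 3 young APP and 1 of 4 young TAU arrays. Its rise was 2.18-fold in gated APP and 2.21-fold in gated TAU, or 1.33-fold and 1.37-fold with values below background raised to it. Csf2rb was called higher in gated TAU against young TAU (log2 0.86, limma adjusted p = 0.019) but not in gated APP against young APP. Its gated TAU call was lost under 5 of 32 settings (limma adjusted p up to 0.0858). The Csf2ra call in gated APP against young APP was lost when the Y-linked mean entered the fit (limma adjusted p = 0.0955), and that of Il18 in gated APP without young APP replicate 2 or 3 (adjusted p = 0.0533 and 0.0643).

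Several genes were called in a comparison with young mice and in neither comparison with aged WT. Ifngr1 fell 2.0-fold in gated TAU (log2 -1.0 ± 0.29, limma adjusted p = 0.0230). Il4ra fell 1.79-fold in gated TAU (log2 -0.84 ± 0.27, adjusted p = 0.0363). In gated APP neither was called as reported. Ifngr1 was called there under some settings, among them array weights (log2 -1.13, limma adjusted p = 0.00257) and quantile normalization (log2 -0.90, adjusted p = 0.0356). Il4ra was called there without young APP replicate 1 (log2 -1.07, limma adjusted p = 0.0175). Il21r, the interleukin 21 receptor, fell 2.0-fold in gated APP (log2 -1.0 ± 0.28, adjusted p = 0.0177). Il17rc, an interleukin 17 receptor chain, rose 1.53-fold in gated TAU (log2 0.61 ± 0.20, limma adjusted p = 0.0445). It was named after its values were seen, and its call was not checked by leaving out samples. It exceeded background on 3 of 4 gated TAU and 2 of 4 young TAU arrays. With values below background raised to it, the rise was 1.3-fold. Leaving out 1 sample ended the call of Ifngr1 (young TAU replicate 1 or 2, gated TAU replicate 2 or 4), of Il4ra (young TAU replicate 1, 2 or 3, gated TAU replicate 1, 2 or 4) and of Il21r (gated APP replicate 3, young APP replicate 3), with limma adjusted p from 0.0566 to 0.107. Tnfrsf22, a decoy receptor, was called higher in both with all groups at background (log2 0.89 ± 0.20 and 0.87 ± 0.19). In gated TAU its limma adjusted p was 0.00236, and it was called under the 31 settings that tested it. The gated APP call of Tnfrsf22 was named after its values were seen and was not checked by leaving out samples. Il18 completes this set of genes, which were not called against aged WT although their log2 fold changes there had the same sign.

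**Figure D4:**
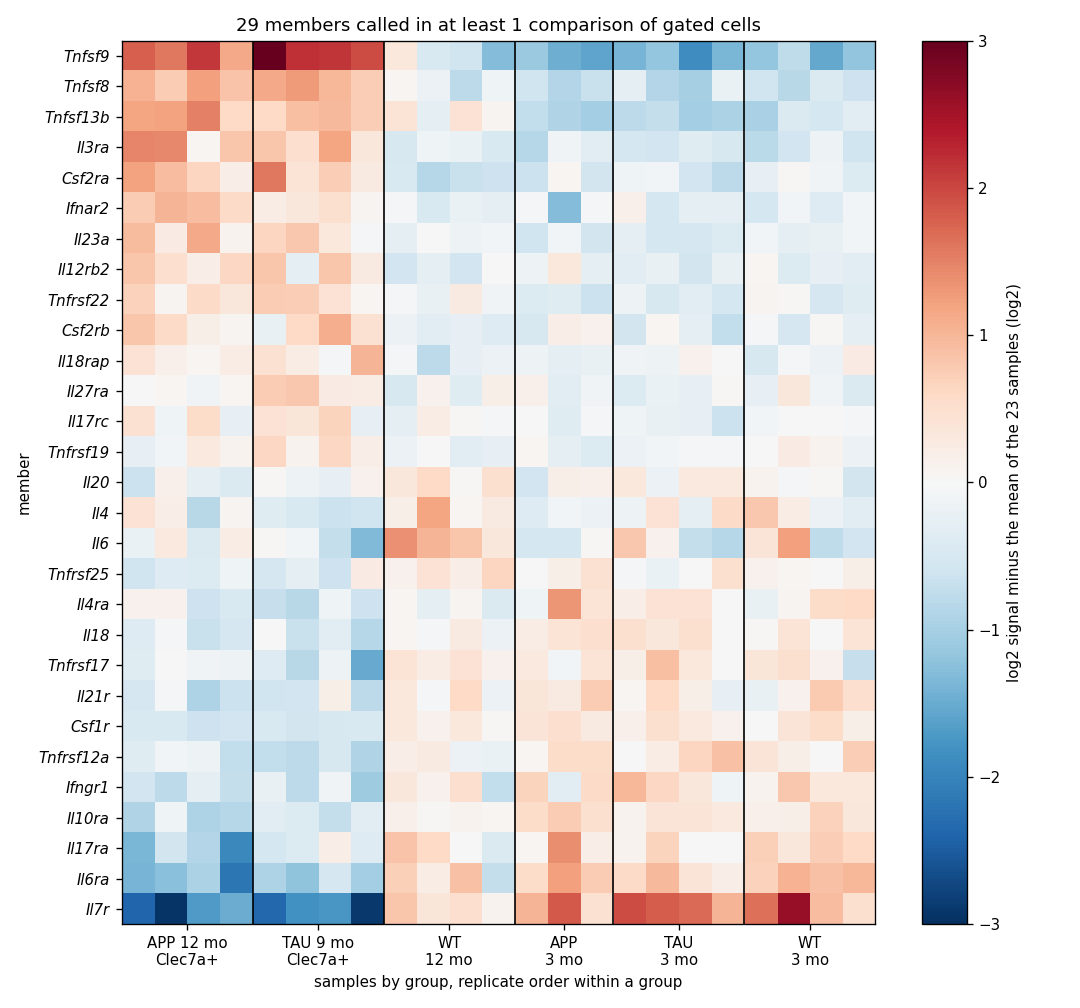
Log2 signal minus the gene's mean over the 23 samples (colour, red higher, blue lower) for the 29 genes called in at least 1 of the 4 comparisons of gated cells (rows), by sample (columns, in replicate order within each group). The 8 gated samples at the left share the red rows of Tnfsf9, Tnfsf8 and Tnfsf13b and the blue rows of Il6ra and Il7r.

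Comparisons without gated cells gave no calls. In aged WT against young WT none of the 110 genes was called by limma, against 0.0360% of all probe sets (0.0360% higher and 0% lower) and 0.0585% of those above background, with 11 genes at an unadjusted p under 0.05 (10%, against 8.95% of all probe sets). The samples did not overlap for 5 of the 110, against 4.17% of all probe sets. Tnfsf13b had the smallest p. It read 9.29, 8.61, 9.30 and 8.95 in aged WT and 7.90, 8.43, 8.35 and 8.56 in young WT, with no overlap (log2 0.73 ± 0.19, limma adjusted p = 0.338). Il7r and Il6ra were at -0.97 ± 0.40 and -0.63 ± 0.29 (limma adjusted p = 0.521 and 0.546), and Csf1r in young WT, at 18.06, 18.47, 18.62 and 18.26, covered its aged WT range.

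The Y-linked means of young APP (4.14 to 4.62) and young TAU (4.0 to 6.88) both lay below those of young WT (6.98 to 7.46). Strain and any difference in sex therefore cannot be told apart in either comparison with young WT. In young APP against young WT and in young TAU against young WT none of the 110 genes and none of all probe sets were called by limma (0% each way, also above background). There were 3 and 0 of the genes at an unadjusted p under 0.05 and 648 and 922 of all probe sets. The samples did not overlap for 5 genes in young APP and 2 in young TAU, against 4.90% and 2.94% of all probe sets. The genes with the 3 smallest p in young APP, Il1r1, Il12a and Il1f8, were at background in both groups. Tnfsf9, Il7r, Il6ra and Csf1r overlapped between each young transgenic group and young WT.

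Genes of the signalling pathways outside the family were counted from 9 lists, against aged WT unless said otherwise. Of all probe sets, 9.08% were called in gated APP and 8.76% in gated TAU against aged WT. Among probe sets above background the shares were 17.1% and 16.3%. No list was tested against these shares, and the counts are not read as results about a pathway. Of 9 measured Janus kinase and STAT genes, 2 rose in gated APP, Stat2 (2.22-fold, limma adjusted p = 0.00338) and the kinase gene Jak2 (1.92-fold, adjusted p = 0.0326), and none was called in gated TAU. Of 16 inhibitors of cytokine signalling, 3 rose in gated APP and 1 in gated TAU. The one in both was Usp18, which restrains the type I interferon receptor at Ifnar2, at 6.99-fold in gated APP (limma adjusted p = 4.07e-08) and 5.03-fold in gated TAU (adjusted p = 9.98e-07). Of 11 interferon and interferon regulatory factor genes, 2 rose in each gated group. Irf9, which partners Stat2, rose 1.85-fold in gated APP (limma adjusted p = 0.0202), Irf8, a factor of microglial identity, rose 2.06-fold in gated TAU (adjusted p = 0.0117), and Irf7 was called in both with all arrays at background.

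On the TNF and interleukin 1 side, 1 of 15 TRAF, death domain and RIP adaptor genes rose and 1 fell in each gated group. Tank, a TRAF-binding adaptor, rose 4.81-fold in each (limma adjusted p = 0.000127 in gated APP and 0.000183 in gated TAU), and Casp8, the initiator caspase of death receptors, fell 2.23-fold and 2.30-fold (adjusted p = 6.21e-06 and 5.73e-06). Tnf itself, the ligand of Tnfrsf1a and Tnfrsf1b, averaged 13.70 ± 0.55 in gated APP, 15.43 ± 0.44 in gated TAU and 12.81 ± 0.68 in aged WT (SD, n = 4 each). It rose 6.15-fold in gated TAU (limma adjusted p = 8.55e-05), was not called in gated APP (adjusted p = 0.181), and was 3.32-fold lower in gated APP than in gated TAU (adjusted p = 0.0275). Of 15 genes of interleukin 1 receptor signalling, 2 rose and 1 fell in gated APP and 1 rose and 1 fell in gated TAU. Irak3, an inhibitory kinase of that pathway, rose 5.65-fold in gated APP (limma adjusted p = 7.01e-05) and was 3.11-fold higher in gated APP than in gated TAU (adjusted p = 0.0318), and Tab2, an adaptor, fell 1.69-fold in gated APP and 2.0-fold in gated TAU (adjusted p = 0.00498 and 0.000449).

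Of 18 NF-kB subunit and regulator genes, 1 rose in each gated group, the deubiquitinase gene Otulin (1.90-fold in gated APP and 1.84-fold in gated TAU; limma adjusted p = 0.0242 and 0.0357). None of 7 TNF receptors under other names was called in either gated group, and of 7 TNF ligands under other names Tnf was the 1 called. Of 18 other cytokines and cytokine receptors, among them Csf1, 2 rose in gated APP, and 2 rose and 1 fell in gated TAU. Crlf2, the receptor chain for TSLP that pairs with the Il7r product, rose 4.25-fold in gated APP (limma adjusted p = 1.64e-07) and 2.15-fold in gated TAU (adjusted p = 0.00101). Its mean signals were 10.02 ± 0.16 in gated APP, 9.04 ± 0.51 in gated TAU and 7.94 ± 0.32 in aged WT (SD, n = 4 each). Median log2 fold changes of the 9 lists lay between -0.19 and 0.30 in gated APP and between -0.15 and 0.14 in gated TAU, against -0.06 and -0.05 over all probe sets.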

How the data were processed

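Microglial RNA (5 ng of total RNA per sample) was hybridised to whole-transcript mouse arrays in 23 samples of 6 groups. The authors deposited log2 values, 1 for each probe set, made by robust multi-array average (RMA) in the Transcriptome Analysis Console, per the submitters' processing notes, which give no version; RMA corrects background and scales all arrays together, which can compress differences of dim probe sets. No source used here gives the genome build of the array's annotation. Of the deposited columns, all map to a sample (0 were left unused) and no 2 were identical.

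Probe sets were named through the platform annotation, and all 110 genes were matched by gene ID to RefSeq. One limma fit (lmFit and eBayes, version 3.58.1 in R 4.3.3) of 6 group means was made over 22203 probe sets, with 17 residual and 5.11 prior degrees of freedom, and p-values, two-sided, were adjusted by Benjamini and Hochberg in each of 8 comparisons. A gene was called at an adjusted p under 0.05. The median SE of a log2 fold change was 0.22 for the 110 genes. The script was tested on simulated data. Precision is limited by the number of arrays.

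The members and gene lists were chosen with earlier results of these data known. The text names called genes, up to 12 in each direction in the comparisons of gated cells with aged WT and up to 6 in the others, and a fixed list of receptor and ligand genes; a few genes of the 9 pathway lists were named after their values were seen. Where gated APP and gated TAU were compared, all 4 pairs of samples with the same replicate number deviated together (r from 0.18 to 0.42). Samples of different number were not compared, so it is not known whether the number pairs them. The fit with the number as a block gave 0 calls there, as did the unblocked one. Alternatives were median centring, quantile normalization, leaving out dim probe sets, eBayes with trend and robust, array weights, a covariate for the Y-linked mean, the replicate number as a block, leaving out each sample, leaving out aged WT replicates 2 and 4, and a fit of each comparison's groups alone. Raising values below background to it was added after seeing the data.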

Additional observations from a re-analysis of the deposited data

Results flagged for a closer look

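Among 220 sets of 4 samples from the 44 named genes, 8 (3.64%) held a sample far from its group, where chance gives about 1 in 20. Tnfsf9 was at 10.95 in gated TAU replicate 1, with the other 3 samples between 9.21 and 9.45. Il10ra was at 14.11 in gated APP replicate 2, with the others between 13.31 and 13.38. Tnfrsf1b was at 9.18 in gated APP replicate 1 (others 8.14 to 8.22) and at 8.26 in young WT replicate 1 (others 8.44 to 8.47). The other 4 lay at background: Il1r1 at 6.28 in gated APP replicate 3 (others 6.92 to 7.02) and at 5.84 in gated TAU replicate 3 (others 6.92 to 6.97), Il20 at 6.37 in young TAU replicate 2 (others 6.84 to 6.86) and Il33 at 6.95 in gated TAU replicate 4 (others 6.40 to 6.49).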

How the results depend on the processing

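Of 243 log2 fold changes of named members of the family, 62 were called, and 0 of these changed sign under the settings planned; 95 uncalled ones did under at least 1. Raising values below background to it, a setting added after seeing the data, turned Il18rap in gated TAU against aged WT to -0.13. Leaving out 1 sample in turn gave 12 to 18 called genes in gated APP against aged WT, 10 to 19 in gated TAU against aged WT (10 without aged WT replicate 1 or 2, 11 without gated TAU replicate 3), 0 to 1 in gated APP against gated TAU, 13 to 18 in gated APP against young APP, 16 to 22 in gated TAU against young TAU, and 0 in the other comparisons. The 1 gene was Il6st, without aged WT replicate 3, and the count was also 1 without aged WT replicates 2 and 4. For gated TAU against aged WT the count fell to 8 without aged WT replicates 2 and 4 and to 8 in a fit of the 2 groups alone, which holds fewer samples. With the Y-linked mean in the fit, 15 genes were called in gated APP against aged WT, 14 of them shared with the main fit. In gated TAU against aged WT 19 were called, but only 14 of the 18 main calls were kept. Csf2rb, Il12rb2, Il27ra and Il6 were lost there. In gated TAU against young TAU 19 of 21 calls were kept. Both gated groups held samples with a Y-linked mean below all aged WT samples, so the part of any difference in sex is not known. The replicate block gave 16 calls in gated APP and 19 in gated TAU against aged WT, and 18 and 21 against the young groups. In these comparisons same-numbered samples correlated from 0.02 to 0.47, 0.06 to 0.42, -0.12 to 0.04 and -0.19 to 0.33, in that order. Whether the number pairs samples there is not known, since samples of different number were not compared. Against aged WT, Tnfsf9, Csf2ra, Il7r and Csf1r in both gated groups and Il3ra, Il6ra, Il12rb2 and Il17ra in gated APP were called under all 32 settings. Tnfsf8 in both gated groups was called under the 31 settings that tested it, as leaving out dim probe sets removed it. Calls lost in several settings were Csf2rb, Tnfsf13b, Il12rb2, Tnfrsf25, Tnfrsf12a, Tnfrsf19, Il27ra, Il6, Il18rap, Il4 and Tnfrsf17 in gated TAU and Il20, Il23a and Tnfrsf25 in gated APP; the cause was not tested. Of the 110 genes, 59 never exceeded background, and for those neither a level nor a fold is resolved.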
